A study of Rattus norvegicus with 8 samples.

Results

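Cycling immune cells of the rat liver were picked out from 10x Chromium single-cell libraries as barcodes with at least 500 unique molecular identifiers (UMIs, each standing for 1 captured transcript), under 20% of UMIs from mitochondrial genes, and at least 3 UMIs summed over Top2a, Mki67 and Cdk1. This rule took 648 of the 32170 barcodes that passed the first 2 limits, or 2.01%. The members were therefore chosen by measured values, and the levels of Top2a, Mki67, Cdk1 and the genes that move with them are given as descriptions.

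The 4 animals were male Han Wistar rats. NC1 and NC2 received the CSAA diet, a choline-sufficient l-amino acid-defined feed, and PC1 and PC2 the CDAA diet, its choline-deficient counterpart, which is used to bring on fatty liver disease in rodents. Immune cells were isolated from homogenised, filtered liver by lysis of erythrocytes and separation on a density medium, so that parenchymal cells were largely left behind. From every rat, part of the cells was loaded fresh and part after 3 weeks frozen in dimethyl sulfoxide (DMSO) with fetal calf serum, which makes 8 libraries with 18338700 to 26471843 UMIs each. The age of the rats is not given in the sources used here, a diet group holds 2 animals, and preservation and the day of processing cannot be told apart.

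A cell that divides copies its DNA in S phase, passes through G2 and separates its chromosomes in mitosis, and each step needs its own set of transcripts. Replication needs the Mcm helicase, Pcna and nucleotide synthesis, whereas mitosis needs cyclin A and B, the kinases that they switch on, and the kinesins and condensins that move and pack the chromosomes. In the adult liver, resident macrophages (Kupffer cells) renew themselves by division, and lymphocytes divide when they are stimulated.

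Top2a encodes the topoisomerase that untangles DNA before mitosis, Mki67 a protein that coats mitotic chromosomes, and Cdk1 the kinase that drives entry into mitosis. The 648 barcodes held 1912 UMIs of Top2a in 567 barcodes, 1695 of Cdk1 in 561 and 1245 of Mki67 in 514. All 3 genes were found in 377 barcodes (58.2%), the median barcode had 6 UMIs of the 3 genes and the highest had 50. The promoters of the 3 genes are shown because they share short elements of genes that peak late in the cell cycle, the cell cycle homology element TTTGAA and the CCAAT box, which are set in capitals on either strand in the 150 bases before each start (RefSeq, GRCr8, 5′ to 3′ on the strand of the gene: Top2a chr10:84473094-84473243, minus strand; Mki67 chr1:199952594-199952743, minus strand; Cdk1 chr20:19265143-19265292, plus strand).
Top2a: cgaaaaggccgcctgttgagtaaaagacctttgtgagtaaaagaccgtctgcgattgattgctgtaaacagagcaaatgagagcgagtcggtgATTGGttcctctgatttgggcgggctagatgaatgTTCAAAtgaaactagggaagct
Mki67: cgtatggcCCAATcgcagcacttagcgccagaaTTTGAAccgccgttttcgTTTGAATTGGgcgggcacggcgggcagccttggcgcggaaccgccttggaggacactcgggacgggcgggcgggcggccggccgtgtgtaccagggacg
Cdk1: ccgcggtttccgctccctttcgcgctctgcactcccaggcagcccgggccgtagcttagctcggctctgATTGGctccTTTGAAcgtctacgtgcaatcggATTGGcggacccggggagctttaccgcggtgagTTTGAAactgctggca
The second TTTGAA of Mki67 and its reverse-strand CCAAT overlap. Over all 33469 promoters of this length, 9.13% held TTTGAA, 23.5% held CCAAT and 2.31% held both. Among the promoters of the list of G2 and mitosis genes, 18 of 46 (39.1%) held TTTGAA, 28 of 46 (60.9%) CCAAT and 13 of 46 (28.3%) both. Promoters of the list of S phase genes held TTTGAA in 0 of 44 and CCAAT in 19 of 44 (43.2%). These are matches of letters and not measured sites.

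Lists of cell cycle genes that the rule did not use were read across the threshold. Barcodes with no UMI of the 3 genes, 28327 in number, carried 6.58 UMIs of the S phase list, 9.67 of the G2 and mitosis list and 17 of a chromatin and tubulin list per 10000 UMIs. The 310 barcodes with 2 UMIs, just outside the rule, carried 15.6, 25.6 and 37.5 per 10000. The 123 barcodes with 3 UMIs, just inside, carried 28.8, 44.1 and 68.3 per 10000. The 310 barcodes below the threshold thus lay between the members and the bulk of the cells. In the 157 barcodes with 10 or more UMIs the G2 and mitosis list reached 94.0 per 10000, while the S phase list stood at 23.0, below its level of 31.6 in barcodes with 4 UMIs.

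**Figure D1:**
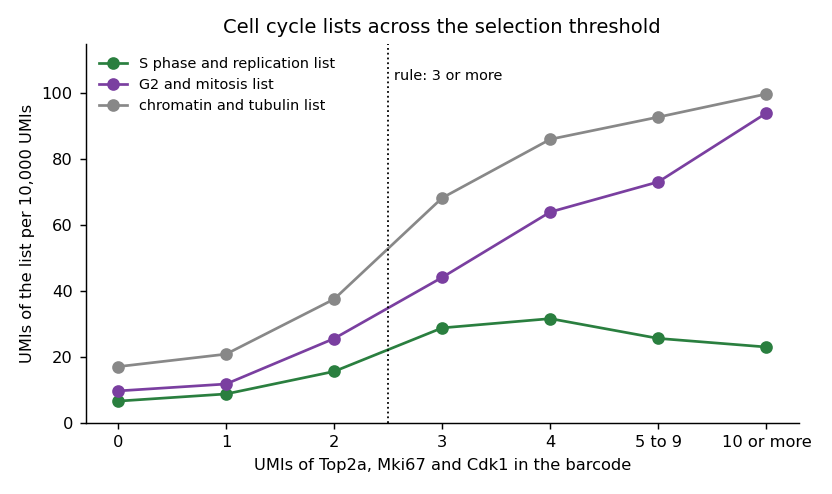
UMIs of the S phase, G2 and mitosis, and chromatin and tubulin lists per 10000 UMIs (y axis) in barcodes grouped by their UMIs of Top2a, Mki67 and Cdk1 (x axis); the dotted line marks the rule. All 3 lists step up between 2 and 3 UMIs, and the S phase list levels off at 23.0 to 31.6 per 10000 while the G2 and mitosis list goes on to 94.0.

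Members were deeper than the other barcodes, with a median of 11540 UMIs against 4020, and a minimum of 3 UMIs itself favours deep barcodes. When every barcode was thinned to 2000 UMIs, members still held more genes, a mean of 917 against 888 in NC1 fresh and higher in 8 of 8 libraries. Their mitochondrial share was lower in 8 of 8 libraries, 5.15% against 5.64% in NC1 fresh. Of the members, 23 (3.55%) were among the barcodes with the highest doublet scores, against 3.24% of the others, and doublets were not removed. Libraries shared 581 of 31584 distinct barcode sequences, which included 29 members (4.48%) and 3.61% of the others, and 2 sequences were members in more than 1 library.

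Genes of mitosis were among those with the highest ratio of members to others, beside 2 genes known here only by an identifier, AABR07027752.2 and LOC100359539. Among the 2553 genes with at least 50 counts per 1000000 UMIs (CPM) in members or in the others, 114 were at least 2-fold higher in members in 8 of 8 libraries (4.47%) and 17 at least 2-fold lower (0.666%). Cyclin A2 (Ccna2) stood at 44.1 to 107 CPM in the 8 sums of members and at 1.33 to 4.81 CPM in the sums of the others, a mean log2 ratio of 4.88. Cdca3, which promotes the breakdown of a mitotic inhibitor, had a ratio of 4.82, Racgap1, which works in the division of the cytoplasm, 4.55, and the mitotic kinase Plk1 4.47. The other genes of the 10 highest were AABR07027752.2 at 5.42 (329 to 761 CPM against 5.76 to 18), Top2a at 4.91, LOC100359539 at 4.55, Sapcd2 at 4.48, Cdk1 at 4.47 and Mki67 at 4.43. The levels of members and others did not overlap for Ccna2, Cdca3, Racgap1, Plk1, Sapcd2, AABR07027752.2 and LOC100359539.

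Of the G2 and mitosis list, 26 of 27 genes at 50 CPM were 2-fold higher in 8 of 8 libraries, with a median log2 ratio of 3.44 against 0.07 over all 2553 genes. Only 4 of these 27 genes, and 3 of 17 of the S phase list, reached 50 CPM in the other barcodes; the remainder were counted through the members, where they are high, so that these counts and medians are set in part by the minimum and describe only the genes that passed it, 27 of 48 and 17 of 45 in the files. Anp32e (1.22) and Tacc3 (1.4) had the smallest ratios. Of the S phase list, 14 of 17 were 2-fold higher, with a median of 1.69, from Rfc2 (1.16), a subunit of the loader of the sliding clamp, to Uhrf1 (3.61), which keeps DNA methylation through replication. The chromatin and tubulin list was 2-fold higher in 7 of 7, with a median of 2.62. Stmn1, whose protein takes microtubules apart, stood at 1676 CPM in members and 152 CPM in the others, and the histone gene H2afx at 349 and 31.8 CPM.

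Lists for growth moved less. The median log2 ratio was 0.57 for 6 heat shock genes, 0.53 for 8 nucleolar genes and 0.46 for 7 glycolysis genes, and no gene of these lists was 2-fold higher in 8 of 8 libraries. Gapdh had a ratio of 1.09, at 870 CPM in members and 416 CPM in the others, whereas Aldoa had one of -0.53. Of the G1 genes, Cdk4 had a ratio of 1.22 and Ccnd1, the cyclin of early G1, one of -1.0. The 4 genes of cell cycle inhibitors and quiescence had a median of -0.58, with Btg1 at -0.78 and Btg2 at -0.70, both genes that hold back growth. Early response genes were lower in members in 10 of 10 by the mean ratio, with a median of -0.82 and the lowest value for Dusp1, a phosphatase that turns off stress kinases, at -1.33. Over all barcodes these ratios mix cell types. Within NK-like barcodes the medians were 0.19 for the inhibitors and -0.25 for the early response list, within T-like barcodes -0.72 and -0.52, and within Kupffer-like barcodes -0.30 (2 genes) and -0.41.

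Genes that were lower in members included a B cell gene and genes of neutrophils and monocytes. Cd79a, a chain of the B cell receptor, stood at 5.41 to 41.8 CPM in members and 38.2 to 99.5 CPM in the others (mean log2 ratio -2.21). S100a9 and S100a8, the paired calcium-binding proteins of neutrophils and monocytes, had ratios of -1.86 and -1.75, and Lyc2, a lysozyme gene, one of -2.38. LOC100360575 had a ratio of -2.20, Fxyd2 -1.74, Samhd1, which lowers the pool of nucleotides outside S phase, -1.68, Gpm6b -1.66, RGD1561778 -1.63 and Pygm -1.63. S100a9, Samhd1, Gpm6b, Pygm and LOC100360575 were at least 2-fold lower in 8 of 8 libraries.

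The lineages of the cycling cells were first read from 1 gene each, in fresh libraries and with every barcode thinned to 2000 UMIs. Ncr1, an activating receptor of natural killer (NK) cells, was found in 21.0%, 27.8%, 20.0% and 26.1% of members of NC1, NC2, PC1 and PC2, against 12.6%, 17.8%, 14% and 17.4% of the others. Cd3e, a chain of the T cell receptor complex, was found in 40.3%, 32.0%, 15.6% and 9.09% of members against 25.6%, 24.4%, 11.2% and 5.15% of the others. In 4 of 4 animals members carried both genes more often; the differences averaged 8.29 ± 1.66 percentage points for Ncr1 and 7.62 ± 4.98 for Cd3e (SD over 4 animals; exact permutation test, two-sided p = 0.12, the smallest that 4 pairs can give; adjusted over 6 genes 0.15).

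Genes of B cells and of other myeloid cells went the other way. Cd79a was found in 4.84%, 4.12%, 4.44% and 3.41% of members against 12.2%, 11.9%, 13.2% and 7.76% of the others. Clec4a3, a lectin of monocytes and macrophages, was found in 1.61%, 0.0%, 13.3% and 3.41% of members against 7.12%, 8.88%, 16.7% and 17.1% of the others. Members carried both less often in 4 of 4 animals, with mean differences of -7.04 ± 1.88 and -7.86 ± 4.52 percentage points (SD over 4 animals; exact permutation p = 0.12, adjusted 0.15). Siglech, a lectin of plasmacytoid dendritic cells (pDC), differed by -3.63 ± 1.07 percentage points, lower in members of 4 of 4 animals (exact permutation p = 0.12, adjusted 0.15). At the deposited depth Siglech was instead found more often in members, by 24.2 percentage points. Clec4f, the lectin that marks rat Kupffer cells, was higher in members of 3 of 4 animals, by 2.22 ± 2.83 percentage points (exact permutation p = 0.375). With 4 animals no difference of this kind could pass a threshold of 0.05.

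A single UMI can come from free RNA, so that 1 gene does not place a barcode. Siglech stood at 849 CPM in other barcodes of the pDC-like clusters and at 71.9 CPM in those of the NK-like and 76.0 CPM in those of the T-like clusters. Siglech was seen in 48.5% of NK-like members at a median of 10087.5 UMIs, and in 25.6% of the other NK-like barcodes at a median of 4133 UMIs, while its level in NK-like, T-like, Kupffer-like and B-like barcodes, members and others, stayed within 62.7 to 78.5 CPM. Members were therefore also placed by the whole transcriptome: the 31522 other barcodes were grouped into 16 clusters, and each member took the cluster that most of its 15 nearest neighbours belonged to. This placement was chosen after the data were seen and is given as a description. It was clear for most members, with a median of 15 of 15 votes, and at least 8 votes for 646 of 648.

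NK-like, T-like and Kupffer-like clusters held nearly all cycling cells. NK-like clusters took 398 members (61.4% of members against 27.0% of the others), the T-like cluster 133 (20.5% against 10.3%) and the Kupffer-like cluster 85 (13.1% against 5.37%). Myeloid-like clusters, the largest class of the others at 29.3%, took 3 members. The cycling share was 4.47% of the 8900 NK-like barcodes (398 of 8900, exact 95% interval 4.05 to 4.92%), 3.93% of the T-like (133 of 3381, 3.30 to 4.65%) and 4.78% of the Kupffer-like (85 of 1777, 3.84 to 5.88%). It was 0.273% of the pDC-like barcodes (11 of 4026), 0.339% of the B-like (7 of 2062), 0.365% of a cluster led by Fcnb and Vcan (8 of 2194), 0.0324% of the myeloid-like (3 of 9251) and 1.4% of a small cluster led by Cxcl1 (3 of 215). Of those last 3 members, 2 had doublet scores among the highest; without such barcodes the share was 0.515% (1 of 194) in that cluster and 0.240% (5 of 2087) in the one led by Fcnb and Vcan. No member was placed among 280 neutrophil-like barcodes, which allows a share of up to 1.07% by a floor of 3 counts and 1.31% by the exact interval, among 55 mast cell-like barcodes or among 29 endothelial-like barcodes. Neutrophil-like barcodes were shallow, with a median of 1134 UMIs and 26 of 280 at 2000 UMIs, whereas the shallowest member had 1361 UMIs. A minimum of 3 UMIs is hard to reach at such depth, so that the absence of members says little about their cycling share. The intervals cover counting error only.

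**Figure D2:**
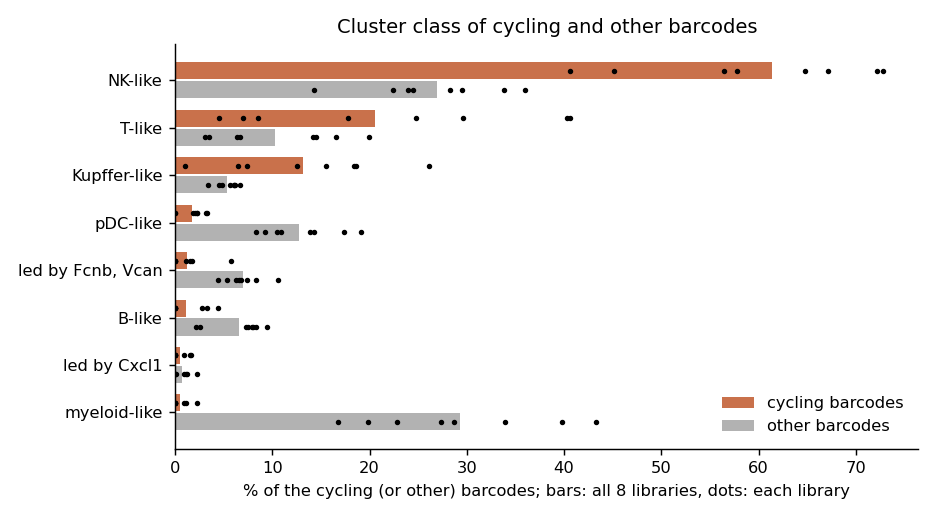
Share of the cycling barcodes (orange bars) and of the other barcodes (grey bars) in each class of clusters that held cycling barcodes, as a percentage over all 8 libraries, with dots for the single libraries. NK-like clusters hold 61.4% of cycling and 27.0% of other barcodes, whereas myeloid-like clusters hold 29.3% of the others and 3 cycling barcodes.

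Depth differed between the classes. Other Kupffer-like barcodes had a median of 11116.5 UMIs, against 4133 in NK-like and 4031.5 in T-like barcodes. When barcodes were thinned to 2000 UMIs and, at the same time, counted as cycling from 2 UMIs of the 3 genes, the share was 2.35% in NK-like, 1.64% in T-like and 1.1% in Kupffer-like barcodes. Unlike these shares, that of the myeloid-like barcodes was then higher, at 0.110% (8 of 7266) against 0.0324% (3 of 9251). The lower depth and the lower minimum cannot be told apart in these values. The Kupffer-like share was then below the NK-like share in 8 of 8 libraries, but above the T-like share in PC2 fresh (1.53% against 0.826%), PC2 DMSO (1.51% against 0.741%) and NC2 DMSO (1.66% against 1.58%), with 0 to 4 cycling Kupffer-like barcodes per library.

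Pooled over libraries, the classes carried their own lineage genes in members too, although Clec4f did so unevenly. Cd3e stood at 696 CPM in T-like members and 734 CPM in the other T-like barcodes, against 46.7 CPM in NK-like members. Ncr1 stood at 179 CPM in NK-like members and 265 CPM in other NK-like barcodes, against 28.6 CPM in T-like members. Clec4f stood at 122 CPM in Kupffer-like members and 225 CPM in the others of that cluster, where it was 15.3 CPM in NK-like members. The first of these values rests on 1 library: 165 of its 252 UMIs came from PC2 fresh, at 268 CPM, and without that library it was 60.0 CPM against 236 CPM in the others. In the other 7 libraries it ran from 0 CPM in NC2 fresh, with 1 member, to 162 CPM in NC1 DMSO. It was 7.12 CPM in the 8 Kupffer-like members of NC2 DMSO and 15.6 CPM in the 21 of PC2 DMSO. These levels lay below or near the 15.3 CPM of NK-like members. The 11 pDC-like members carried Siglech at 903 CPM, against 849 CPM in the other pDC-like barcodes. The 7 B-like members carried Cd79a at 460 CPM against 1063 CPM (761 CPM without PC1 fresh), and a list of plasma cell genes at 19.7 UMIs per 10000 against 2.75 in the other B-like barcodes. Of the 283 plasma list UMIs of these 7 members, 208 came from the 2 members of PC1 fresh, 72 from the 3 of NC2 DMSO and 3 from the 2 of NC1 fresh. In the sums of members this plasma list stood at 289 CPM in PC1 fresh and at 37.6 to 46.7 CPM in the other 3 fresh libraries. A list of erythroid genes stood at 121 CPM in the members of NC2 DMSO, led by the globin chaperone Ahsp at 68.8 CPM. It stood at 9.62 CPM in the others of that library and at 2.70 to 11.3 CPM in the members of the other 7 libraries. In the other barcodes of NC1 DMSO, however, this list stood at 87.9 CPM, led by Hbb at 83.6 CPM.

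Within the NK-like class, 116 of 2452 genes were 2-fold higher in members in 8 of 8 libraries (4.73%) and 2 were 2-fold lower (0.0816%). These 2 were Phf1 (mean log2 ratio -1.66) and Slfn5 (-1.59), a gene of the Schlafen family. The chemokine Ccl5, one of the most abundant transcripts of these cells, stood at 11154 to 15082 CPM in NK-like members and at 23624 to 30458 CPM in the other NK-like barcodes, without overlap. Ccl1 had a ratio of -2.26, Pik3ip1, an inhibitor of PI3 kinase, -1.19, and Ccnd2 -1.19. Among T-like barcodes, 89 of 2411 genes were 2-fold higher in members in 8 of 8 libraries (3.69%) and 7 lower (0.29%). Lef1, a transcription factor of naive T cells, stood at 20.6 to 45.7 CPM in T-like members and 109 to 241 CPM in the other T-like barcodes. Pik3ip1 was again lower (-2.48), as were Rab3ip (-2.42), Art2b (-2.04) and the survival gene Bcl2 (-1.73). Among Kupffer-like barcodes, 56 of 2466 genes were 2-fold higher in members in 8 of 8 libraries (2.27%) and 0 lower (0.0%). Clec4f (-1.76) and the chemokine Cxcl9 (-2.11) had the lowest mean ratios there together with Slpi (-1.60), and the levels of each overlapped between members and others. Kupffer-like members of NC2 fresh were 1 barcode and T-like members of PC2 fresh 4, so that the 0.5 UMI added to each sum before a ratio weighs on these counts.

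NK-like barcodes of the 2 diets lay in different clusters, and cycling cells, which take their cluster from these neighbours, did so with them. In fresh libraries of NC1, NC2, PC1 and PC2 cluster 0 held 998, 1153, 41 and 34 barcodes, cluster 2 350, 351, 6 and 4, cluster 6 23, 14, 661 and 503, and cluster 15 2, 2, 294 and 676. All NK-like members of PC animals but 2 fell in the clusters numbered 6 and 15, and all of those of NC animals in the clusters numbered 0 and 2. Cluster 0 was led by the granule protease genes Mcpt1l4 and Mcpt8l3, clusters 2 and 15 by granzymes and Klrg1, and cluster 6 by Ccl1 and Xcl1.

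The share of cycling barcodes was higher after DMSO in every animal. Fresh libraries of NC1, NC2, PC1 and PC2 held 62 of 4617 (1.34%), 97 of 4129 (2.35%), 45 of 4122 (1.09%) and 88 of 4190 (2.1%). The DMSO libraries held 64 of 3555 (1.80%), 108 of 3431 (3.15%), 70 of 3902 (1.79%) and 114 of 4224 (2.70%). The difference was 0.639 ± 0.146 percentage points (SD, n = 4 animals, higher in 4 of 4; exact permutation test, two-sided p = 0.12, the smallest possible). At 2000 UMIs, and with the minimum lowered to 2 UMIs of the 3 genes, the share was also higher in 4 of 4, from 0.802%, 1.25%, 0.381% and 0.829% to 1.16%, 1.43%, 0.878% and 1.25%.

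Free RNA of the 3 genes moved with this share. In barcodes of 10 to 100 UMIs, too small to be cells, Top2a, Mki67 and Cdk1 together stood at 37.9, 50.1, 25.2 and 56.1 CPM in the fresh libraries and at 72.4, 93.3, 80.2 and 75.7 CPM in the DMSO libraries. The sums of members held 461 to 678 CPM of the 3 genes. The part of free RNA in the higher share was not tested.

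The difference was seen in NK-like barcodes of all animals. Their cycling share was 2.04%, 4.61%, 2.59% and 4.68% in the fresh and 4.94%, 7.58%, 4.77% and 5.64% in the DMSO libraries of NC1, NC2, PC1 and PC2. The number of cycling NK-like barcodes was 28, 70, 26 and 57 fresh and 26, 61, 47 and 83 after DMSO, of 1373, 1520, 1002 and 1217 and of 526, 805, 985 and 1472 NK-like barcodes. In both NC animals the cycling barcodes were thus fewer after DMSO, and the share was higher because NK-like barcodes as a whole dropped by more. At 2000 UMIs, with the lowered minimum, it was 2.11%, 2.69%, 0.958% and 1.73% fresh and 3.29%, 3.65%, 2.43% and 2.70% after DMSO. T-like barcodes gave 3.66%, 4.03%, 3.01% and 3.10% fresh and 4.32%, 4.60%, 2.31% and 5.30% after DMSO, higher in 3 of 4 animals. At 2000 UMIs and the lowered minimum the T-like shares were 1.58%, 1.39%, 0.826% and 0.826% fresh and 3.04%, 1.58%, 1.43% and 0.741% after DMSO, where PC1 was higher and PC2 lower after DMSO, the reverse of the deposited depth, with 1 to 15 cycling barcodes per library. Kupffer-like barcodes gave 2.56%, 0.510%, 2.95% and 8.52% fresh and 4.85%, 3.83%, 4.85% and 7.61% after DMSO, with 1 to 23 cycling barcodes per library.

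**Figure D3:**
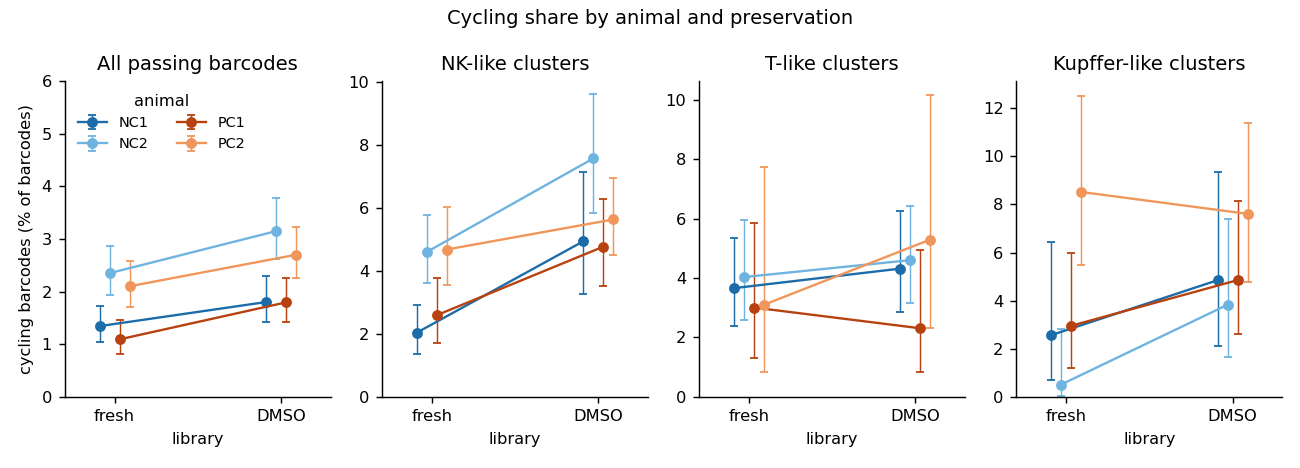
Cycling barcodes as a percentage of all passing, NK-like, T-like and Kupffer-like barcodes (y axes) in the fresh and DMSO library of each animal, with lines joining the libraries of 1 animal and bars for 95% intervals of counting error. Over all barcodes the share rises from 1.09 to 2.35% in fresh libraries to 1.79 to 3.15% after DMSO, with every line pointing up there and in the NK-like panel.

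By single lineage genes at 2000 UMIs no difference between DMSO and fresh passed. Among barcodes with Ncr1 the cycling share was 1.89%, 2.45%, 0.388% and 0.786% fresh and 1.57%, 3.01%, 1.86% and 1.42% after DMSO, a difference of 0.588 ± 0.729 percentage points (3 of 4 higher, n = 4; exact permutation p = 0.25, adjusted over 6 genes 1.0). Cd3e (0.0343), Cd79a (0.0300), Siglech (0.102), Clec4a3 (-0.0148) and Clec4f (-0.255) had smaller differences in percentage points, all with an adjusted exact permutation p of 1.0. At the deposited depth, with 3 UMIs as minimum, the share rose after DMSO in every animal for Ncr1, Cd3e and Siglech. For Cd79a, Clec4a3 and Clec4f the animals differed in direction. Depth and minimum change together between these settings. Among the alternatives the difference ran from 0.295 to 4.00 percentage points for Ncr1, -0.193 to 1.20 for Cd3e and -0.0873 to 0.887 for Siglech. The makeup of the members also gave no difference past the threshold. At the deposited depth Clec4a3 was found in 4.84%, 12.4%, 40.0% and 27.3% of members fresh. After DMSO it was found in 3.13%, 9.26%, 24.3% and 23.7% (lower in 4 of 4, n = 4, exact permutation p = 0.12, adjusted 0.75).

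The diets did not separate the overall share. In fresh libraries the CSAA animals had 1.34% and 2.35% and the CDAA animals 1.09% and 2.1% (difference -0.250 percentage points; exact permutation test of 2 against 2, p = 0.667, where 0.33 is the smallest possible). The makeup of the members differed by diet in the T-like and Kupffer-like classes, and that of the other barcodes with it. T-like barcodes were 40.3% and 24.7% of members in the fresh CSAA animals and 17.8% and 4.55% in the CDAA animals, and 14.4%, 14.2%, 6.33% and 3.05% of the other barcodes. Kupffer-like barcodes were 6.45% and 1.03% of members in the CSAA and 15.6% and 26.1% in the CDAA animals, and 3.34%, 4.84%, 5.64% and 6.02% of the others. The 2 groups did not overlap in either of these classes, among members or among the others. NK-like barcodes, the largest class of members, were 45.2% and 72.2% of members in the CSAA and 57.8% and 64.8% in the CDAA animals. These NK-like shares overlapped, whereas those among the other barcodes did not. The class shares were not tested, and 2 against 2 animals could give no exact permutation p under 0.33.

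The single genes gave the same direction as the T-like and Kupffer-like shares. Cd3e was found in 71.0% and 58.8% of CSAA and in 51.1% and 27.3% of CDAA members of fresh libraries, a difference of -25.7 percentage points. Clec4a3 was found in 4.84% and 12.4% against 40.0% and 27.3%, a difference of 25.0. Among the alternatives these differences ran from -37.6 to -1.37 percentage points for Cd3e and from 18.7 to 37.1 for Clec4a3. Neither gene overlapped between the diets (exact permutation p = 0.33, the smallest possible, adjusted over 6 genes 0.667). The other barcodes showed the same shift, with Cd3e in 38.3% and 37.2% of CSAA and 21.6% and 10.3% of CDAA barcodes and Clec4a3 in 12.6% and 14.5% against 31.2% and 31.0%. These shares are at the deposited depth, at which fresh CDAA members were deeper (medians of 14394 and 12385.5 UMIs against 9972 and 10223). Clec4f did not overlap at that depth, at 8.06% and 25.8% against 28.9% and 26.1%, but did at 2000 UMIs, at 1.61% and 9.28% against 4.44% and 9.09%.

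The S phase share of cycle transcripts was compared as a ratio within the members. Of the UMIs of the S phase and the G2 and mitosis lists, S phase genes took 24.1%, 25.1%, 26.1% and 31.0% in the fresh members of NC1, NC2, PC1 and PC2, and 20.3%, 23.3%, 23.8% and 28.3% after DMSO. After DMSO the share was lower in 4 of 4 animals; the differences averaged -2.67 ± 0.839 percentage points (SD over 4 animals; exact permutation p = 0.12, the smallest possible). In the other barcodes the share was likewise lower after DMSO in 4 of 4 animals, from 38.9%, 38.7%, 43.4% and 44.2% to 38.5%, 37.2%, 41.8% and 41.4%. Few members had more S phase than G2 and mitosis UMIs: 5, 6, 6 and 20 fresh and 2, 11, 11 and 23 after DMSO. The rule chose members by genes that peak late in the cycle, so that a lean to G2 and mitosis was built in. Hmgb2 alone weighed on that list, at 4521, 3670, 4045 and 3899 CPM in the fresh NK-like members. Pooled over libraries, the G2 and mitosis genes at 50 CPM summed to 8312 CPM in NK-like members.

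By diet the fresh CDAA animals had the higher S phase share, a mean of 28.6% against 24.6%, without overlap (exact permutation test of 2 against 2, p = 0.33, the smallest possible). The other barcodes did not overlap by diet either, at 38.9% and 38.7% against 43.4% and 44.2%. By class the share of members took different values. It was 22.9% over NK-like, 26% over T-like and 34.2% over Kupffer-like members. In Kupffer-like members it was 14.8 to 21.7% in the 4 libraries of CSAA animals, with 1 to 8 members each, and 29.8 to 47.2% in the 4 of CDAA animals, with 7 to 23. In NK-like members it was 20.3%, 23.0%, 22.5% and 25.1% in the fresh libraries of NC1, NC2, PC1 and PC2, where the diets overlapped.

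**Figure D4:**
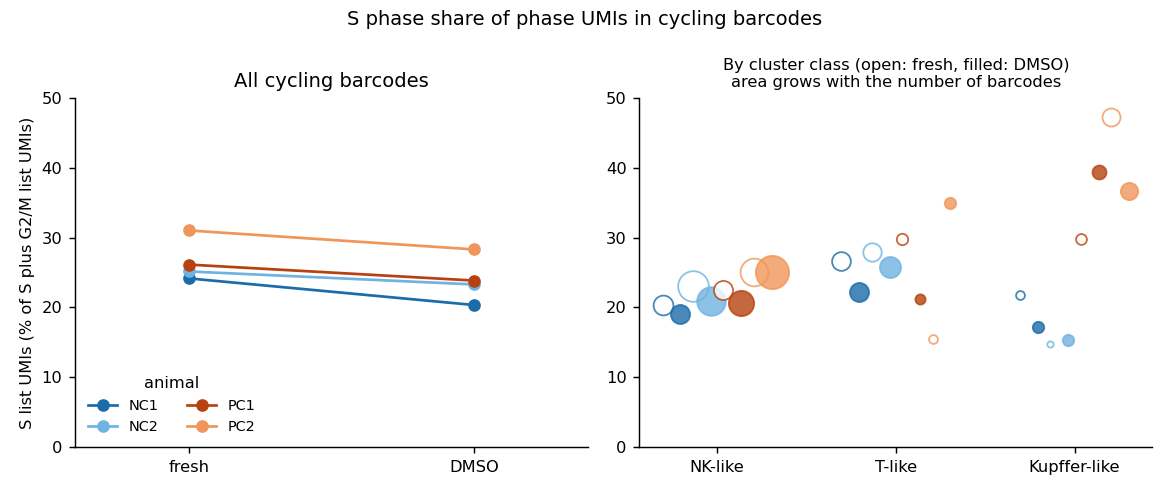
S phase list UMIs as a percentage of S phase plus G2 and mitosis list UMIs (y axis) in all cycling barcodes of each animal, fresh and DMSO (left), and by cluster class, with a circle for each library whose area grows with the number of barcodes (right). All 4 lines fall from fresh to DMSO, and Kupffer-like circles of the CDAA animals (29.8 to 47.2%) lie above those of the CSAA animals (14.8 to 21.7%).

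Early response genes, which switch on within minutes of a stimulus, rose in cycling cells after DMSO. UMIs of members were summed per library and tested with edgeR's quasi-likelihood test with the animal as a block and Benjamini-Hochberg adjustment over 6397 genes, and a gene was called at an adjusted p under 0.05 and a 2-fold difference. In such sums fewer cells of a type and less RNA per cell cannot be told apart. The test called 21 genes (0.328%), 18 higher and 3 lower after DMSO. Of the early response list, 8 of 12 tested genes were called higher, and its median log2 fold change was 1.46 against -0.0036 over all genes tested.

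Fosb, a partner of Jun in the AP-1 factor, stood at 18.9, 6.27, 2.51 and 2.12 CPM in the fresh members of NC1, NC2, PC1 and PC2 and at 247, 777, 332 and 296 CPM after DMSO (log2 fold change 5.99, SE 0.33, adjusted p = 4.33e-07). Fos rose from 48.5, 8.06, 8.80 and 11.3 CPM to 555, 834, 607 and 735 CPM (5.35, SE 0.33, adjusted p = 1.27e-06). Jun rose from 20.2, 21.5, 31.4 and 17 CPM to 311, 453, 227 and 308 CPM (3.90, SE 0.19, adjusted p = 1.70e-07). Fresh and DMSO members did not overlap for any of the 3 genes. The nuclear receptor gene Nr4a2 rose by 2.79 (SE 0.31, adjusted p = 3.77e-04) and Dusp1 by 2.41 (SE 0.21, adjusted p = 3.36e-05) on the log2 scale.

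The other genes called higher were the early response genes Atf3, Klf6, Zfp36 and Junb, the chemokines Ccl3 and Ccl4, the regulators of G protein signals Rgs1 and Rgs2, the stress phosphatase subunit Ppp1r15a, and Chrne, Cd24, Slc10a1 and AABR07000398.1. Lower were Vamp8, which works in granule release, at 33.7, 33.1, 37.7 and 55.9 CPM fresh and 21.6, 14.8, 14 and 19.0 CPM after DMSO (-1.24, SE 0.20, adjusted p = 0.0112), the ribosomal gene Rps10 (-1.09, SE 0.19, adjusted p = 0.0154) and Apoe, the last in 3 of 4 animals. Without the animal block 11 genes were called, and the adjusted p was 0.136 for Vamp8 and 0.447 for Rps10. Among all alternatives the adjusted p of Atf3 reached 0.351 and that of Junb 0.249.

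No gene of the S phase (0 of 38), G2 and mitosis (0 of 40) or chromatin and tubulin (0 of 9) lists was called by preservation. Over all genes tested 0.328% were called, so that counts of 0 in lists of this size lie near the background and say nothing particular about these lists. Of the G2 and mitosis list, 33 of 40 had a positive log2 fold change, with a median of 0.19, and Ccnb1, the cyclin B1 gene, passed the adjusted p but not the 2-fold minimum (0.68, SE 0.13, adjusted p = 0.0447). Of the S phase list, 14 of 38 were positive, with a median of -0.09. Btg2 also passed the adjusted p below 2-fold (0.88, SE 0.10, adjusted p = 5.27e-04). The log2 fold changes of Top2a (-0.03), Mki67 (-0.15) and Cdk1 (0.23) are descriptions only, since the rule chose members by these genes. For lists of G1 genes, heat shock, nucleolus and glycolysis, 0 genes were called.

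The other barcodes of the same libraries held higher levels of the early response list throughout. The list stood at 9.09, 6.11, 7.95 and 8.08 UMIs per 10000 in fresh members and 26, 34.1, 22.4 and 26.3 after DMSO, against 17.1, 10.6, 15.2 and 14.7 fresh and 40.6, 55.6, 30.6 and 41.8 after DMSO in the others. A test of the difference between both responses over 10826 genes called 10 (0.0924%), 3 of them with a higher change in members. Of the early response list 0 of 12 were called, and Fos passed the adjusted p below 2-fold (0.81, adjusted p = 0.0015). Free RNA moved too, with Fos at 59.9, 25.0, 16.6 and 12.9 CPM fresh and 398, 739, 417 and 543 CPM after DMSO in barcodes of 10 to 100 UMIs. Its part in the rise was not tested.

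**Figure D5:**
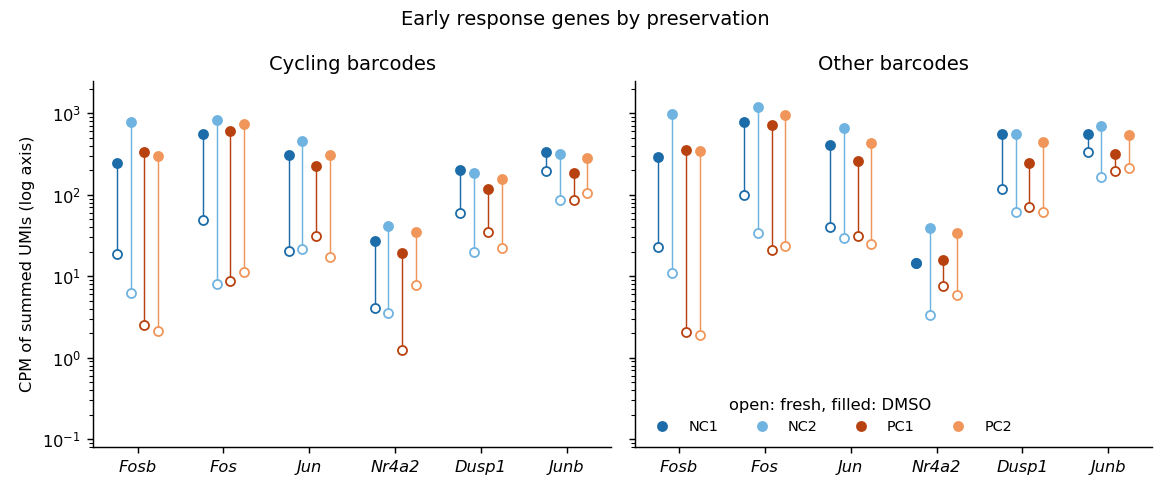
CPM of summed UMIs (log axis) of Fosb, Fos, Jun, Nr4a2, Dusp1 and Junb in cycling (left) and other (right) barcodes, fresh (open) and DMSO (filled), joined within each animal. Fosb, Fos and Jun rise in all 4 animals on both sides, for Fos from 8.06 to 48.5 CPM up to 555 to 834 CPM in cycling barcodes.

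The 4 genes named in that test of both responses were few in UMIs. Ubr1, a ubiquitin ligase gene, had 0, 1, 0 and 1 UMIs in fresh members and 3, 8, 3 and 10 after DMSO (difference of log2 changes 3.66, adjusted p = 0.0268). Armc6 had 13, 14, 15 and 20 UMIs fresh and 1, 15, 7 and 7 after DMSO (-1.76, adjusted p = 0.00235). Lyc2 (1.25, adjusted p = 0.00501) and the chemokine Ccl12 (-1.69, adjusted p = 0.0209) were the others. These 4 were named because they moved alike in 4 of 4 animals. Apoe (-1.44), Car2 (1.31) and LOC100361706 (-1.64) were also called, but went up in 2 animals and down in 2. Cd5l (-1.18) and Pf4 (-1.25) were lower in 3 of 4 animals, whereas Prss3 (-7.48) was higher in 3 of 4. With DESeq2 or without the animal term none of the 10 genes was called, with 169 and 474 genes at an unadjusted p under 0.05.

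When only NK-like members were summed, which was added after the data were seen, 37 of 4797 genes were called (0.771%), 22 higher and 15 lower after DMSO. Of the 20 tested genes among the 21 above, 18 were called there. The early response list had 7 of 11 higher, and the chromatin and tubulin list had 1 of 9 lower. Btg2 rose by 1.06 on the log2 scale (adjusted p = 2.21e-08), from 273, 220, 204 and 201 CPM to 507, 562, 398 and 378 CPM. Mcpt8l3, a granule protease gene, stood at 422, 982, 258 and 147 CPM fresh and at 172, 360, 185 and 91.7 CPM after DMSO, lower in 4 of 4 animals (-1.02), and Gnas fell by 1.4 on the log2 scale. Cluster 0, which Mcpt1l4 and Mcpt8l3 lead, held 17 of 28 and 45 of 70 NK-like members of NC1 and NC2 fresh and 8 of 26 and 34 of 61 after DMSO, and the part of this shift in the lower Mcpt8l3 was not tested.

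By diet, the 5 genes named for the largest rise in cycling cells of the CDAA animals were Fabp4, Mmp12, Spp1, Apoe and Trem2, all of which macrophages can express. The same test on the 4 fresh sums called 279 of 6397 genes (4.36%), 213 higher and 66 lower. Apoe, which carries lipids out of macrophages, stood at 16.2 and 2.69 CPM in NC1 and NC2 and at 2384 and 2040 CPM in PC1 and PC2 (log2 fold change 8.03, SE 0.43, adjusted p = 2.66e-06). Fabp4, a fatty acid binding protein, had 0, 1, 409 and 4221 UMIs (adjusted p = 1.14e-04), a ratio of 3895 with a counting interval of 699 to 153895. Mmp12, the macrophage elastase, had 0, 0, 53 and 527 UMIs (adjusted p = 0.00172), at least 163-fold higher against a floor of 3 counts over both NC libraries. Spp1, which encodes osteopontin, had 0, 2, 107 and 1381 UMIs (adjusted p = 8.63e-04; ratio 626, counting interval 173 to 5174). Trem2, a lipid receptor, had 0, 1, 82 and 319 UMIs (adjusted p = 4.15e-05; ratio 337, 60.2 to 13359). The size of these ratios depended on the library: against both CSAA libraries PC1 alone gave 955 for Fabp4, 125 for Spp1 and 191 for Trem2 and at least 41.3-fold for Mmp12, whereas PC2 alone gave 5552, 908, 420 and at least 231-fold. Both CDAA values above both CSAA values was a condition for being among these 5 genes, so that this order is no result. PC2 lay above PC1 except for Apoe.

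Markers of Kupffer cells and of other myeloid cells moved with this difference. Clec4f stood at 14.8, 23.3, 33.9 and 127 CPM (2.09, SE 0.50, adjusted p = 0.0332) and Clec4a3, from the myeloid list, at 4.04, 11.6, 51.5 and 44.6 CPM (2.46, SE 0.41, adjusted p = 0.00451). Among the alternatives the adjusted p of Clec4f reached 0.526. C1qa, C1qb, C1qc, Cd5l, Slc40a1 and Folr2 of the Kupffer list were also called higher, whereas Marco, Vsig4 and Timd4 of that list were not among the called genes. The Kupffer-like cluster was led by Apoe, Gpnmb, Fabp4 and Spp1 as well as by C1qa, C1qb, C1qc, Cd5l, Clec4f and Slc40a1. The Kupffer list summed to 371, 323, 1852 and 4177 CPM in members and to 583, 843, 1485 and 1315 CPM in the others. Free RNA held the same genes, with Fabp4 at 66.0, 25.9, 885 and 820 CPM in barcodes of 10 to 100 UMIs and Apoe at 106, 37.1, 598 and 1357 CPM. How much of the diet difference came from the larger number of Kupffer-like members or from free RNA was not tested.

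Genes called lower in the CDAA animals included Trat1 and other T cell genes. Trat1, an adaptor of the T cell receptor, stood at 89.0, 70.8, 22.6 and 9.91 CPM (-2.40, SE 0.34, adjusted p = 0.00185), and Cd3e was called lower too (-1.78, adjusted p = 0.0133, up to 0.344 among the alternatives), with Cd3g, Lat, Bcl11b and Trbc2. The T list summed to 2522, 2691, 1378 and 978 CPM in members. Tgfb1 stood at 91.7, 26.9, 2.51 and 4.95 CPM (-3.77, SE 0.64, adjusted p = 0.00512) and the chemokine Ccl24 at 80.9, 29.6, 3.77 and 11.3 CPM (-2.64, SE 0.54, adjusted p = 0.0143). The neutrophil chemokine Cxcl1 had 29, 21, 0 and 1 UMIs (adjusted p = 0.00186, ratio of NC to PC 59.4, counting interval 10.2 to 2394). The small cluster led by Cxcl1 and Ccl24 held 52, 38, 0 and 1 barcodes in these libraries, with 1 member, in NC1. The part of this cluster in the lower Cxcl1 and Ccl24 was not tested. Cdan1 had 10, 14, 1 and 0 UMIs (adjusted p = 0.00974; ratio 28.5, 4.65 to 1173), and its adjusted p reached 0.341 among the alternatives. Ncr1 (0.07), Cd79a (-0.57) and Siglech (-0.21) were not called.

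Over all genes tested 4.36% were called by diet. Of the S phase (0 of 39), G2 and mitosis (0 of 40) and chromatin and tubulin (0 of 9) lists none was called, with medians of -0.07, -0.04 and -0.00 on the log2 scale against -0.01 over all genes. Top2a (-0.50), Mki67 (-0.53) and Cdk1 (-0.10) are again given as descriptions only, since the rule chose members by these genes. The inhibitor gene Cdkn2c, which blocks the kinases of G1, fell by 1.01 on the log2 scale (adjusted p = 0.0308) and Jund by 1.25 (adjusted p = 0.016). Both calls were lost under an alternative, with an adjusted p of up to 0.350 for Cdkn2c and 0.196 for Jund. All 9 glycolysis genes tested were positive, with a median of 0.26, and 0 were called.

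A test of whether the diet difference was larger in members than in the other barcodes called 145 of 11308 genes (1.28%), 136 with a higher and 9 with a lower difference in members. Markers of Kupffer cells were among those with a higher one. Clec4f had a diet difference 2.27 larger in members (log2, SE 0.29, adjusted p = 1.99e-10, up to 0.414 among the alternatives), and C1qa (1.76), C1qb (1.99), C1qc (2.29), Cd5l (2.84), Slc40a1 (3.19) and Folr2 (3.05) were called too. Marco, Vsig4 and Timd4 of the Kupffer list were not among the called genes. The Kupffer-like share, given above, was higher in the CDAA animals by more among members (6.45% and 1.03% against 15.6% and 26.1%) than among the others (3.34% and 4.84% against 5.64% and 6.02%), and a larger difference per cell and a larger share of Kupffer-like cells cannot be told apart in these sums. Apoe stood at 33.0, 13.1, 421 and 568 CPM in the others, and its diet difference was 3.54 larger in members (log2, SE 0.25, adjusted p = 2.34e-27). Rnf128 had 0, 0, 10 and 22 UMIs in members and 3.78, 4.83, 5.72 and 7.50 CPM in the others (adjusted p = 5.25e-04). Lilrb3, Eepd1, Clec4a and Mmp12 were likewise at 0 UMIs in both CSAA sums of members. The death receptor gene Fas stood at 29.7, 16.1, 20.1 and 9.91 CPM in members and 15.0, 12.8, 25.5 and 29.0 CPM in the others (-1.68, SE 0.39, adjusted p = 0.00213). RGD1562667 was higher in CDAA animals on both sides, at 13.5, 27.8, 89.2 and 166 CPM in members and 10.6, 18.3, 176 and 392 CPM in the others (-1.68, SE 0.27, adjusted p = 1.27e-06). Snx10 (-2.35), Tesc (-1.87) and Igll1 (-6.23), the last with 7, 0, 0 and 1 UMIs in members, were the other 3 named for a lower difference. Under at least 1 alternative each of the 10 genes named for this difference lost its call, with a highest adjusted p from 0.151 for Rnf128 to 1.0 for Igll1, whereas Apoe stayed at or below 2.55e-04. Fas was lower in the CDAA than in the CSAA mean of members and higher in every CDAA library of the others.

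Within NK-like members alone the diet test called 44 of 4655 genes (0.945%), 21 higher and 23 lower, and 37 of the 179 tested genes among the 279 were called there. Slc25a4, the mitochondrial carrier of ADP and ATP, stood at 182, 195, 621 and 626 CPM (1.73, SE 0.19, adjusted p = 3.04e-04). Fabp4, Spp1, Apoe and Gpnmb were also called higher, at 150 and 284 CPM for Fabp4 in PC1 and PC2, which is below its level in free RNA. Lower were Tbx21, the master factor of type 1 lymphocytes (-1.10, adjusted p = 0.0469), Fam111a (-1.15, at 1304, 1323, 553 and 614 CPM), Cdkn2c (-1.33), the ubiquitin conjugase gene Ube2s (-1.62), Cd3e (-1.56) and Cd3d (-2.01). Over all libraries Cd3e stood at 46.7 CPM in NK-like members. It stood at 47.3 to 71.3 CPM in other barcodes of the myeloid-like, pDC-like, Kupffer-like and B-like clusters. The part of free RNA in the lower Cd3e and Cd3d was not tested. The granule protease genes Mcpt1l4 (-2.32) and Mcpt8l3 (-1.89) were lower as well. The NK-like members of the diets came from different clusters, so that these values compare clusters as well as diets.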

How the data were processed

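Single-cell transcriptomes of liver immune cells from 4 rats were measured in 8 libraries (fresh and DMSO). Per the labels, the authors used Cell Ranger 2.1.1 to make whole-number counts of UMIs for each gene in each barcode (with bcl2fastq 2.17.1.14 and STAR) on Rnor6.0, unfiltered, and deposited 737280 barcodes and 32754 genes per library. Here barcodes with at least 500 UMIs and under 20% mitochondrial UMIs were kept. Members, lists and tests were chosen with earlier results of these data known. Shares were compared by exact permutation over animals, at the deposited depth or thinned to 2000 UMIs. UMIs of members were summed per library and tested with edgeR 4.0.16 (quasi-likelihood, TMM, filterByExpr, R 4.3.3), with DESeq2 1.42.0 as an alternative. Fresh and DMSO libraries of 1 animal carry its name in the labels, so the animal was the block. In simulated data with 200 genes changed by 1.5 or 2 on the log2 scale, the test of DMSO against fresh found 86 of 105 and 79 of 95 (2 false calls), that of its difference between members and others 63 of 102 and 80 of 98 (0), that of diet 78 of 105 and 84 of 95 (2), and that of its difference 41 of 106 and 55 of 94 (2). Clusters and doublet scores came from scanpy 1.11.5 (1979 variable genes, 30 components, resolution 0.4), and doublets were kept. Named were Top2a, Mki67, Cdk1, the 6 lineage genes, list members with the largest and smallest change, the 5 called genes with the largest change in each direction that moved alike in all animals, and the 10 with the largest ratio to the other barcodes. Genes named beside these, and all from NK-like, T-like or Kupffer-like barcodes alone, were chosen after their values were seen. The alternatives were other depths, limits, scalings, filters, doublet removal and leaving out each animal. Lists of hepatocyte, stellate and progenitor genes stood at 0.0 to 18.8 CPM in members.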

Additional observations from a re-analysis of the deposited data

Results flagged for a closer look

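Among barcodes with Cd79a at 2000 UMIs, the cycling share changed from fresh to DMSO by -0.346 and -0.184 percentage points in NC1 and NC2 and by 0.232 and 0.418 in PC1 and PC2, so that the diets moved in opposite directions; the difference was not tested, and the shares rest on few barcodes.

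The response to preservation was called different between cycling and other barcodes for 10 genes (edgeR's interaction test, adjusted). Differences of log2 changes were 3.66 for Ubr1, 1.25 for Lyc2, -1.76 for Armc6 and -1.69 for Ccl12, which moved alike in 4 of 4 animals. The animals differed in direction for Apoe, Car2, LOC100361706, Cd5l, Pf4 and Prss3. The diet difference was called different between cycling and other barcodes for 145 genes. Rnf128 (9.62), Lilrb3 (9.31), Eepd1 (9.12), Clec4a (8.93) and Mmp12 (8.82) had the highest differences; all 5 are at 0 UMIs in the CSAA members, so that these fitted values depend on the prior count and are no bounds. Igll1 (-6.23), Snx10 (-2.35), Tesc (-1.87), Fas (-1.68) and RGD1562667 (-1.68) had the lowest.

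Transcripts of Top2a, Mki67 and Cdk1 were also present outside the barcodes that were compared. In barcodes of 10 to 100 UMIs they stood at 25.2 CPM in the lowest library (PC1 fresh) and 93.3 CPM in the highest (NC2 DMSO); the other passing barcodes stood at 14.7 to 31.5 CPM over the 8 libraries, below the free RNA in each. Groups of 2 libraries are too small for a test of single outlying samples.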

How the results depend on the processing

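The libraries limit what can be read: 4 pairs of libraries cannot give an exact permutation p under 0.12 nor 2 animals against 2 one under 0.33, 0 to 114 cycling barcodes stand behind a share, and depth enters the choice of members. Of 219 alternatives to the share and phase results, 187 kept the direction, 31 turned it and 1 gave a difference of 0. Only the direction was compared for these results. Of 40 alternatives to the gene counts 21 stayed within 1.5 times. The causes were not tested. Leaving out a library, also added after seeing the data, moved the level of Clec4f in Kupffer-like members from 122 to 60.0 CPM without PC2 fresh and that of Cd79a in B-like members from 460 to 761 CPM without PC1 fresh, and no level of Ncr1, Cd3e or Siglech in their class by over 1.5 times. Ratios of members to others without the minimum of 50 CPM, added after seeing the data, could not be used: over all 32754 genes their median was 3.87, since the 0.5 UMI added to each sum puts a gene with no UMI higher in the small sums of members than in the larger sums of the others.

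Animals paired the libraries. Without this replicate block the exact permutation p of the cycling share was 0.2 (its mean difference cannot move, since each animal has 1 library of each kind), 11 genes instead of 21 were called for DMSO against fresh, and 0 instead of 10 for the preservation change of members minus that of the others. The DESeq2 test gave 11, 0, 149 (of 279 by diet) and 50 (of 145 for the diet difference of members minus that of the others). Without a filter on low counts 66 genes were called by preservation and 492 by diet, and with no fold minimum 36 by preservation, 44 and 240 in the tests of the difference between members and others. NK-like members alone gave 37 by preservation and 44 by diet, an alternative chosen after seeing the data. Leaving out 1 animal gave 13 (without NC2) to 41 (without NC1) genes by preservation, 4 (without PC1) to 15 for its difference, 195 (without PC2) to 500 (without PC1) by diet, of which 152 of the 279 were kept without PC2, and 70 (without PC2) to 189 for its difference, with 76 without NC2.

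Changes of cycling share within carriers of a lineage gene, in percentage points, turned at a depth of 4000 UMIs for Cd79a (-0.257), Siglech (-0.0873), Clec4a3 (1.51) and Clec4f (0.526), at the deposited depth for Clec4a3 (1.12) and Clec4f (1.16), without the highest doublet scores for Clec4a3 (0.00377), and with marker lists for Clec4a3 (0.150) and Clec4f (0.552), where Siglech gave 0.0. Siglech in members minus others turned to 24.2 at the deposited depth. In members, DMSO minus fresh turned to -0.544 for Cd3e at 5 or more UMIs, and for Siglech to -0.453 without the highest doublet scores and -6.04 with the marker list, and PC minus NC turned to -10.6 for Cd79a with the marker list.

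Leaving out 1 animal turned the diet difference of the cycling share (-0.754 without PC2 to 0.254 without PC1). It gave ranges across 0 within carriers for Cd3e (-0.193 to 0.123), Cd79a (-0.0994 to 0.155), Siglech (-0.0424 to 0.220), Clec4a3 (-0.245 to 0.107) and Clec4f (-0.791 to 0.349). The same held in members by preservation for Ncr1 (-6.38 to 0.213), Siglech (-2.92 to 5.0) and Clec4f (-8.11 to 2.41), and by diet for Cd79a (-0.547 to 10.3) and Siglech (-4.15 to 12.5). The S phase share kept its direction, at -2.94 to -2.29 by preservation and 1.48 to 6.37 by diet.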
